A study of Drosophila melanogaster with 9 samples.

Results

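The genes described here are 10 Drosophila genes of the asymmetric division and cell polarity of neuroblasts, the neural stem cells of the fly: baz, aPKC, par-6, insc, pins, mira, pros, brat, numb and stau. They were selected by symbol, by joining the FlyBase gene IDs of the deposited table to FlyBase symbols, and all 10 were found among the 17421 genes of that table. The table gives, for each gene, the reads found at the 3' ends of its transcripts in the central nervous system (CNS) dissected from homozygous 1st instar larvae kept at 25 °C. The 9 libraries come from 3 genotypes with 3 libraries each: elav5/fne, which carries deletion alleles of both elav and fne; elav5, which carries the elav deletion alone; and the wild-type strain Canton-S. Both mutants thus share the loss of elav and differ by fne. Larvae were picked by a visible marker. The sources used here do not give their sex, their genetic background beyond these alleles or the part of each gene that is deleted. A difference from Canton-S cannot be told apart from other differences between the strains. elav and fne encode ELAV/Hu proteins, RNA-binding proteins of neurons with roles in splicing and in where transcripts end.

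A neuroblast divides unequally, into a new neuroblast and a smaller ganglion mother cell that makes neurons or glia. At the apical side the scaffold Bazooka (baz), Par-6 (par-6) and the atypical protein kinase C (aPKC) form the Par complex, and Inscuteable (insc) ties that complex to Pins (pins), which with a G protein subunit and Mud orients the spindle. The kinase keeps fate determinants off the apical cortex. At the basal side Miranda (mira) is the adaptor that carries the transcription factor Prospero (pros), the translational repressor Brat (brat) and the RNA-binding protein Staufen (stau) into the ganglion mother cell. Numb (numb), an inhibitor of Notch signalling, is inherited by the same daughter. Many neuroblasts of the newly hatched larva are quiescent and re-enter the cell cycle in larval life. Several of the 10 genes, baz, aPKC, brat, numb and stau among them, also act outside neuroblasts.

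The 9 libraries had 15241461 to 18822734 gene reads each, and 3 reads, taken as the floor, corresponded to between 0.150 and 0.196 normalised CPM. Floors cover counting error only. Levels are given as normalised CPM, which are reads divided by the authors' size factors and put on a scale where an average library sums to 1e6, with the mean ± SD and n = 3. Since the labels do not tell separate animals from repeat samples, p-values speak of the spread among these libraries, which may be technical. elav was at 45.3 ± 22.6 in elav5/fne, 31.2 ± 9.26 in elav5 and 1643 ± 68.3 in Canton-S, and fne at 375 ± 129.8, 4696 ± 219 and 5041 ± 546 in the same order, as the labels say. Transcripts of neighbouring tissue varied: the summed level of 16 muscle genes lay between 2759 and 10542 normalised CPM in elav5/fne, between 1446 and 9129 in elav5 and between 1561 and 1733 in Canton-S. It was highest in elav5/fne replicate 3 and elav5 replicate 1, as was that of 12 gut genes (1282 and 905, against 83.4 at most in Canton-S; betaTry was at 0 throughout). Counts without those 2 libraries are given beside the results.

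The 10 genes did not move as a group. In elav5/fne baz, insc, mira and stau were higher than in Canton-S, by between 1.59 and 13.5 times in mean level, aPKC, par-6 and brat were lower, and pins, pros and numb did not pass the test. In elav5 only aPKC and par-6 passed, both lower. Between the mutants baz, insc, mira and stau were higher and numb lower in elav5/fne than in elav5, while aPKC and par-6 did not pass. The brat call was lost in 6 and the numb call in 7 of 23 alternatives. The test was limma on log2(normalised CPM + 1), with p-values adjusted over 9384 genes and a threshold of 0.05; changes are on that scale, on which the changes of low genes come out too small.

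Against Canton-S, 7 of the 10 genes passed in elav5/fne, 4 higher and 3 lower, where 43.2% of all tested genes passed, 25.8% higher and 17.5% lower. In elav5 2 of 10 passed, both lower, where 15.2% of all genes passed, 8.17% higher and 7.04% lower. For elav5/fne against elav5 5 of 10 passed, 4 higher and 1 lower, where 30.8% of all genes passed, 18.5% higher and 12.3% lower. Under TMM scaling 9 of the 10 passed in elav5/fne against Canton-S, 4 higher and 5 lower, as did 2048 genes higher and 2161 lower, in place of 2418 and 1638. Levels of elav5/fne and Canton-S did not overlap for any of the 10 genes, which held for 58.3% of all tested genes, and each gave p = 0.1 in a 2-sided exact permutation test, the smallest that 3 against 3 libraries allow. In elav5 against Canton-S 4 of 10 did not overlap (35.6% of all genes), and in elav5/fne against elav5 6 of 10 (43.8%). The median change of the 10 genes was 0.06 in elav5/fne and -0.04 in elav5 against Canton-S, beside 0.15 and 0.02 for all tested genes, and 0.26 for elav5/fne against elav5, beside 0.15. The comparisons share libraries and are not independent of each other. Without elav5/fne replicate 3 and elav5 replicate 1 the counts were 7, 2 and 4, with pins in place of brat in the first and numb lost in the last. The shares of all genes above are from all 9 libraries and do not apply to these counts. Leaving out 1 library gave 3233 to 4292, 707 to 1539 and 2155 to 3011 called genes over all genes.

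**Figure D1:**
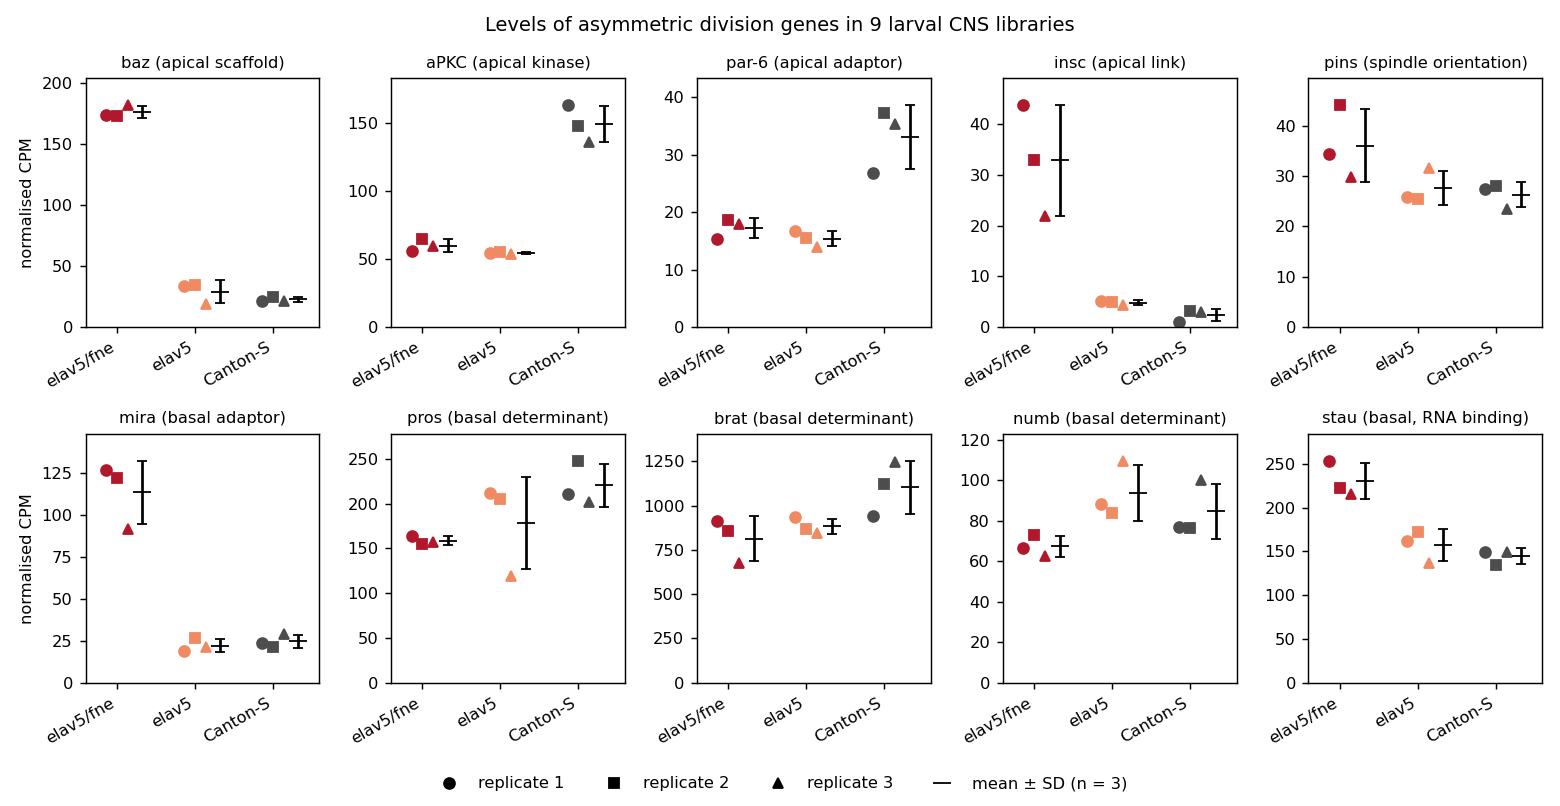
Level of each gene in normalised CPM (vertical axes, each from 0) in elav5/fne, elav5 and Canton-S libraries; symbols are the 3 replicates and the black bar is the mean ± SD. baz, insc and mira are high in all 3 elav5/fne libraries and low in the other 6, while aPKC and par-6 are low in all 6 mutant libraries and high in Canton-S.

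Of the 3 genes of the Par complex, baz was higher in elav5/fne, while aPKC and par-6 were lower in both mutants. baz (chromosome X, 17160006 to 17200728, plus strand, dm6) was at 174, 173 and 182 normalised CPM in elav5/fne replicates 1, 2 and 3, at 34.0, 34.9 and 18.7 in elav5 and at 21.7, 25.1 and 21.5 in Canton-S. Every elav5/fne library lay far above every other library, while elav5 and Canton-S overlapped. The rise of baz in elav5/fne was 2.90 on the log2 scale against Canton-S (SE 0.21, limma adjusted p = 7.7e-06) and 2.61 against elav5 (adjusted p = 2.23e-05), and 2.07% of all tested genes rose by as much or more against Canton-S. In elav5 against Canton-S the change of baz was 0.30 (95% interval -0.17 to 0.77, adjusted p = 0.365). It passed there only without elav5 replicate 3, the library with the lowest baz level of all 9 (log2 0.58, adjusted p = 0.0131). The last 3 bases of baz overlap TTLL1A on the opposite strand, which had no reads in any library.

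aPKC (chromosome 2R, 14944458 to 14962969, minus strand) was at 55.8, 64.7 and 59.4 normalised CPM in elav5/fne, at 54.5, 55.4 and 53.7 in elav5 and at 163, 148 and 136 in Canton-S. The mutants had 40.2% and 36.6% of the Canton-S mean, and every Canton-S library lay far above every mutant library. aPKC fell by 1.30 (limma adjusted p = 1.23e-05) in elav5/fne and by 1.43 (adjusted p = 7.71e-05) in elav5, each with an SE of 0.10. In elav5 only 0.863% of all tested genes fell by as much or more. elav5/fne lay above elav5 by a narrow gap, and the difference of aPKC between the mutants was 0.13 (95% interval -0.10 to 0.36, adjusted p = 0.367). The last 12 bases of aPKC overlap CG10257 on the opposite strand. CG10257 was at 9.14 ± 1.53 in elav5/fne, 15.3 ± 4.82 in elav5 and 9.47 ± 1.87 in Canton-S, and did not pass in any comparison.

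par-6 (chromosome X, 17703352 to 17707096, plus strand), which encodes the adaptor that binds and regulates the kinase, had levels of 15.3, 18.6 and 17.9 normalised CPM in elav5/fne, 16.7, 15.5 and 14.01 in elav5 and 26.8, 37.2 and 35.3 in Canton-S. As with aPKC, no mutant library reached a Canton-S library. The mutants overlapped each other in par-6. par-6 fell by 0.89 (limma adjusted p = 0.0016) in elav5/fne and by 1.05 (adjusted p = 0.00347) in elav5, each with an SE of 0.16. The difference between the mutants was 0.16 (95% interval -0.20 to 0.51, adjusted p = 0.499).

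Ratios within a library do not depend on the scaling between libraries. They were computed after the levels had been seen, restate those levels and compare reads per 3' end, not protein. baz had 2.95 ± 0.244 times as many reads as aPKC in elav5/fne, 0.534 ± 0.161 times in elav5 and 0.153 ± 0.0186 times in Canton-S. No library of any genotype overlapped another genotype in this ratio. The ratio of aPKC to par-6 was 3.47 ± 0.165 in elav5/fne, 3.56 ± 0.288 in elav5 and 4.64 ± 1.25 in Canton-S, and the mutants lay just below Canton-S, whose libraries ran between 3.86 and 6.09. Exact permutation tests, 2-sided, gave p = 0.1, the smallest possible, for the baz to aPKC ratio in each pair of genotypes and for the aPKC to par-6 ratio of each mutant against Canton-S, and p = 0.8 for aPKC to par-6 between the mutants.

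insc (chromosome 2R, 20821262 to 20836028, minus strand), the link between the Par complex and Pins, was at 43.7, 32.98 and 21.9 normalised CPM in elav5/fne, at 5.21, 4.96 and 4.39 in elav5 and at 1.10, 3.12 and 3.06 in Canton-S. The 3 genotypes did not overlap, with elav5 between the others, and elav5/fne varied by about the same factor among its own libraries as elav5 differed from Canton-S. The Canton-S values rest on 22, 62 and 51 reads. insc rose by 3.32 in elav5/fne against Canton-S (SE 0.32, limma adjusted p = 3.74e-05; a ratio of 13.5 between mean levels) and by 2.48 against elav5 (adjusted p = 0.000343). In elav5 against Canton-S its change was 0.84 (95% interval 0.12 to 1.55) and did not pass (adjusted p = 0.108); without Canton-S replicate 1, the library with the lowest insc level, it was 0.52 (adjusted p = 0.297). The span of insc holds the gene sktl on the same strand, whose 3' end lies inside it, and sktl rose as well, with 89.2 ± 5.01 in elav5/fne, 32.9 ± 7.73 in elav5 and 25.3 ± 1.56 in Canton-S (log2 1.78 in elav5/fne against Canton-S, adjusted p = 2.75e-05). The sources used here do not say how reads in the shared span were assigned, and its part in the level of insc was not tested.

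pins (chromosome 3R, 27582840 to 27586376, plus strand), which encodes the spindle orientation protein that Inscuteable recruits, was at 34.4, 44.1 and 29.7 normalised CPM in elav5/fne, 25.9, 25.4 and 31.6 in elav5 and 27.4, 28.0 and 23.4 in Canton-S. Its elav5/fne libraries lay above those of Canton-S by a small margin and overlapped those of elav5. The change of pins was 0.43 in elav5/fne against Canton-S (95% interval 0.06 to 0.80, limma adjusted p = 0.0609), and it passed without elav5/fne replicate 3 (log2 0.55, adjusted p = 0.0287). In elav5 it was 0.07 (95% interval -0.30 to 0.44, adjusted p = 0.806). The ratio of insc to pins was 0.918 ± 0.306 in elav5/fne, 0.178 ± 0.0343 in elav5 and 0.0940 ± 0.0476 in Canton-S.

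Of the basal genes, mira had the largest change in elav5/fne against either other genotype. mira (chromosome 3R, 19931799 to 19935120, minus strand), the adaptor of the basal cargo, was at 127, 122 and 91.8 normalised CPM in elav5/fne, 19.0, 26.4 and 21.1 in elav5 and 23.6, 21.6 and 29.0 in Canton-S. All elav5/fne libraries lay far above any other library, and elav5 overlapped Canton-S. mira rose by 2.15 in elav5/fne against Canton-S (SE 0.18, limma adjusted p = 1.49e-05) and by 2.30 against elav5 (adjusted p = 1.84e-05). In elav5 its change was -0.15 (95% interval -0.55 to 0.24, adjusted p = 0.584). mira lies inside Hs6st, a gene of the same strand, which did not pass in any comparison and was at 40.2 ± 7.16 in elav5/fne, 39.2 ± 8.07 in elav5 and 35.3 ± 4.75 in Canton-S.

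In elav5/fne the genes for the cargo of Miranda changed less than mira against either other genotype. pros (chromosome 3R, 11328480 to 11407627, plus strand), the homeodomain factor that ends self-renewal in the daughter cell, was at 164, 155 and 158 normalised CPM in elav5/fne, 212, 205 and 119 in elav5 and 211, 248 and 202 in Canton-S. The elav5/fne libraries lay below those of Canton-S, while elav5 replicate 3 lay below every other library and the other elav5 libraries at the Canton-S level. The change of pros in elav5/fne was -0.47 (95% interval -0.91 to -0.03, limma adjusted p = 0.0804). It passed in 7 of 23 alternatives. Without elav5 replicate 3, which enters the shared spread, the adjusted p was 0.00385 at the same change. For elav5/fne against elav5 pros passed without that library as well (-0.39, adjusted p = 0.0262), where its change had been -0.12 (adjusted p = 0.677). Against Canton-S it also passed under TMM scaling (-0.61, adjusted p = 0.0268) and in edgeR's quasi-likelihood test on recovered reads (-0.62, adjusted p = 0.0319).

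brat (chromosome 2L, 19133816 to 19179758, plus strand), the repressor that limits growth of the daughter cell, was at 913, 854 and 673 normalised CPM in elav5/fne, 933, 865 and 848 in elav5 and 942, 1119 and 1244 in Canton-S, and had the highest level of the 10 genes in every genotype. Both mutants lay below Canton-S with little space between the nearest libraries, and overlapped each other. brat fell by 0.44 in elav5/fne (SE 0.14, limma adjusted p = 0.0261). This call was lost without Canton-S replicate 2 (-0.42, adjusted p = 0.0760), without Canton-S replicate 3 (-0.35, adjusted p = 0.0975) and without elav5/fne replicate 3 (-0.31, adjusted p = 0.0764). In all it was lost in 6 of 23 alternatives. In elav5 the change of brat was -0.31 (95% interval -0.62 to -0.01, adjusted p = 0.154). The last 10 bases of brat overlap CG17568 on the opposite strand. CG17568 was at 5.72 ± 0.638 in elav5/fne, 6.32 ± 2.52 in elav5 and 6.85 ± 0.626 in Canton-S, and did not pass in any comparison.

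numb (chromosome 2L, 9437469 to 9464184, plus strand), the Notch inhibitor, was at 66.7, 72.7 and 62.5 normalised CPM in elav5/fne, 88.3, 83.8 and 109.7 in elav5 and 77.0, 76.6 and 100.3 in Canton-S. elav5/fne lay below all other libraries, and elav5 overlapped Canton-S. numb fell by 0.47 in elav5/fne against elav5 (SE 0.14, limma adjusted p = 0.0346). This call was lost without elav5 replicate 3 (-0.35, adjusted p = 0.102) and without elav5/fne replicate 1, 2 or 3 (adjusted p = 0.0831, 0.0531 and 0.0937). In all it was lost in 7 of 23 alternatives. Against Canton-S the change of numb was -0.32 in elav5/fne (95% interval -0.64 to 0.01, adjusted p = 0.1005) and 0.15 in elav5 (95% interval -0.17 to 0.47, adjusted p = 0.508). The change of numb in elav5/fne against Canton-S passed under TMM scaling (-0.46, adjusted p = 0.0275) and in edgeR's quasi-likelihood test on recovered reads (-0.47, adjusted p = 0.0341), and in 5 of 23 alternatives in all.

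stau (chromosome 2R, 18117896 to 18125779, minus strand), whose protein binds structured RNA and carries pros mRNA, was at 254, 222 and 215 normalised CPM in elav5/fne, 162, 173 and 137 in elav5 and 149.5, 134 and 149.7 in Canton-S. Every elav5/fne library was above every other library, and elav5 overlapped Canton-S. stau rose by 0.67 in elav5/fne against Canton-S (SE 0.11, limma adjusted p = 0.00114) and by 0.55 against elav5 (adjusted p = 0.00513), while its change in elav5 was 0.12 (95% interval -0.14 to 0.37, adjusted p = 0.518). Per read of pros, mira had 0.715 ± 0.115 reads in elav5/fne, 0.132 ± 0.0438 in elav5 and 0.114 ± 0.0282 in Canton-S. Per read of brat it had 0.139 ± 0.00336, 0.0253 ± 0.00507 and 0.0226 ± 0.00297 in the same order, and per read of stau 0.492 ± 0.0621, 0.141 ± 0.0213 and 0.171 ± 0.0199. In each ratio the elav5/fne libraries lay above all others (2-sided exact permutation p = 0.1, the smallest possible). These ratios restate the larger change of mira and are no separate evidence. elav5 overlapped Canton-S per read of pros and brat, and lay below it per read of stau.

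**Figure D2:**
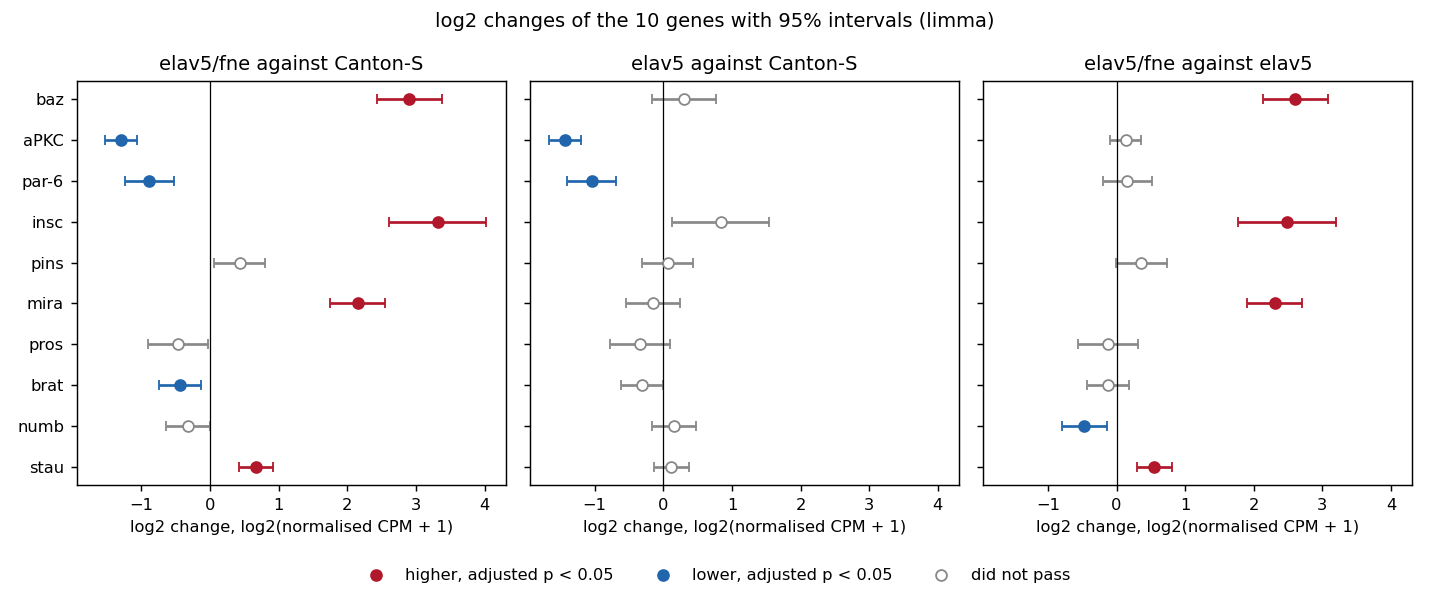
log2 change of each gene (horizontal axes, the first genotype named minus the second) with its 95% interval from limma, in 3 comparisons. baz, insc and mira lie above 2 in both comparisons of elav5/fne, and aPKC and par-6 lie near or below -0.9 in both comparisons against Canton-S and near 0 between the mutants.

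Transcription factors that mark neuroblasts were higher in elav5/fne. ase, a proneural factor of neuroblasts, was at 68.6, 63.5 and 54.7 normalised CPM in elav5/fne, 4.05, 5.68 and 4.19 in elav5 and 2.35, 4.23 and 5.93 in Canton-S (log2 3.67 in elav5/fne against Canton-S, limma adjusted p = 6.94e-06). dpn, a repressor that keeps self-renewal, rose by 1.96 (adjusted p = 0.000197), wor, a Snail family factor, by 1.44 (adjusted p = 0.00453), and klu, a zinc finger factor, by 2.20 (adjusted p = 1.59e-05). None of the 4 passed in elav5 (adjusted p = 0.676, 0.736, 0.0820 and 0.536). Of 9 neuroblast markers tested 8 were higher and none lower in elav5/fne, with a summed level of 701 to 908 normalised CPM, against 196 to 207 in Canton-S; in elav5 it was 199.5 to 274. Of 9 neuron markers other than elav itself, all were lower in elav5/fne and 2 in elav5, with a summed level of 3327 to 4059 in elav5/fne and 6211 to 6910 in elav5, against 7461 to 7795 in Canton-S. Of 9 glial markers 2 were lower in elav5/fne and 7 did not pass. In elav5 1 was higher, nrv2 (log2 0.84, limma adjusted p = 0.00555), 1 lower, repo (-0.84, adjusted p = 0.0404), and 7 did not pass. Over all tested genes 25.8% were higher and 17.5% lower in elav5/fne against Canton-S, and 8.17% and 7.04% in elav5. Markers of the ring gland, an endocrine gland attached to the brain, were lower in both mutants, as were aPKC and par-6: of 4 tested, 4 passed in elav5/fne and 3 in elav5, with a summed level of 46.7 to 74.0 in elav5/fne and 35.8 to 59.0 in elav5, against 98.5 to 151 in Canton-S. In a bulk sample fewer cells of a type and less RNA per cell cannot be told apart, and the part of cell composition or of attached tissue in the changes of the 10 genes was not tested.

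Levels of the 10 genes were therefore also set against neuroblast transcription factors of the same library, as log2 level minus the mean log2 level of ase, dpn, wor and klu, which averaged between 5.75 and 6.35 in elav5/fne, between 4.02 and 4.17 in elav5 and between 3.47 and 3.94 in Canton-S. On this measure mira was at 0.65, 0.79 and 0.79 in elav5/fne, 0.30, 0.60 and 0.33 in elav5 and 1.16, 0.56 and 1.02 in Canton-S. mira in elav5/fne thus overlapped Canton-S (difference -0.17, 2-sided exact permutation p = 0.5). It was the only gene of the 10 to do so on this measure. Set against dpn alone mira also overlapped Canton-S (difference 0.19, exact permutation p = 0.7). Set against wor and dpn mira was higher in elav5/fne by 0.45, without overlap (exact permutation p = 0.1). The nearest libraries were then almost level, at 1.826 in elav5/fne replicate 1 and 1.823 in Canton-S replicate 1. insc was higher relative to these factors in elav5/fne than in Canton-S by 1.00 and baz by 0.58, without overlap, as were 1.07% of all tested genes. The other 7 genes were lower without overlap, as were 84.6% of all tested genes, by between -1.65 for stau and -3.62 for aPKC. par-6 differed by -3.21, pros by -2.79, brat by -2.76, numb by -2.64 and pins by -1.89, beside a median of -2.17 over all genes. As the factors themselves rose in elav5/fne, a gene that rose less than they did, stau among them, is lower on this measure. In all 9 of the 10 genes did not overlap, where 85.6% of all genes did not. Each of these 9 differences gave an exact permutation p = 0.1, the smallest possible.

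None of the factors passed in elav5. Their mean log2 level there still lay above Canton-S without overlap, at 4.02 to 4.17 against 3.47 to 3.94. Most of this shift was that of wor, which changed by 0.90, beside 0.18 for ase, 0.14 for dpn and 0.18 for klu. In relative level 5 of the 10 genes differed between elav5 and Canton-S without overlap, 4 lower and 1 higher. Of all genes 40.6% did so, 35.5% lower and 5.09% higher, and the median difference over all genes was -0.33. aPKC was lower by -1.78, par-6 by -1.39, pros by -0.69 and brat by -0.66, and insc higher by 0.49, each with a 2-sided exact permutation p = 0.1. For elav5/fne against elav5 all 10 did not overlap. mira, insc and baz were higher by 0.33, 0.51 and 0.64, as were 0.853% of all genes. The other 7 were lower, as were 83.6%. The nearest libraries were almost level for baz, at 1.10326 in elav5/fne replicate 1 and 1.10309 in elav5 replicate 1. For mira they were at 0.648 in elav5/fne replicate 1 and 0.602 in elav5 replicate 2. With dpn as the sole comparison gene 2 of 10, aPKC and par-6, did not overlap in elav5 against Canton-S. Between the mutants 8 of 10 then did not overlap, 7 lower and 1, insc, higher. mira and baz overlapped there (2-sided exact permutation p = 0.3 and 0.2). The share of all genes was not computed with dpn alone, so these counts cannot be set against a background.

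**Figure D3:**
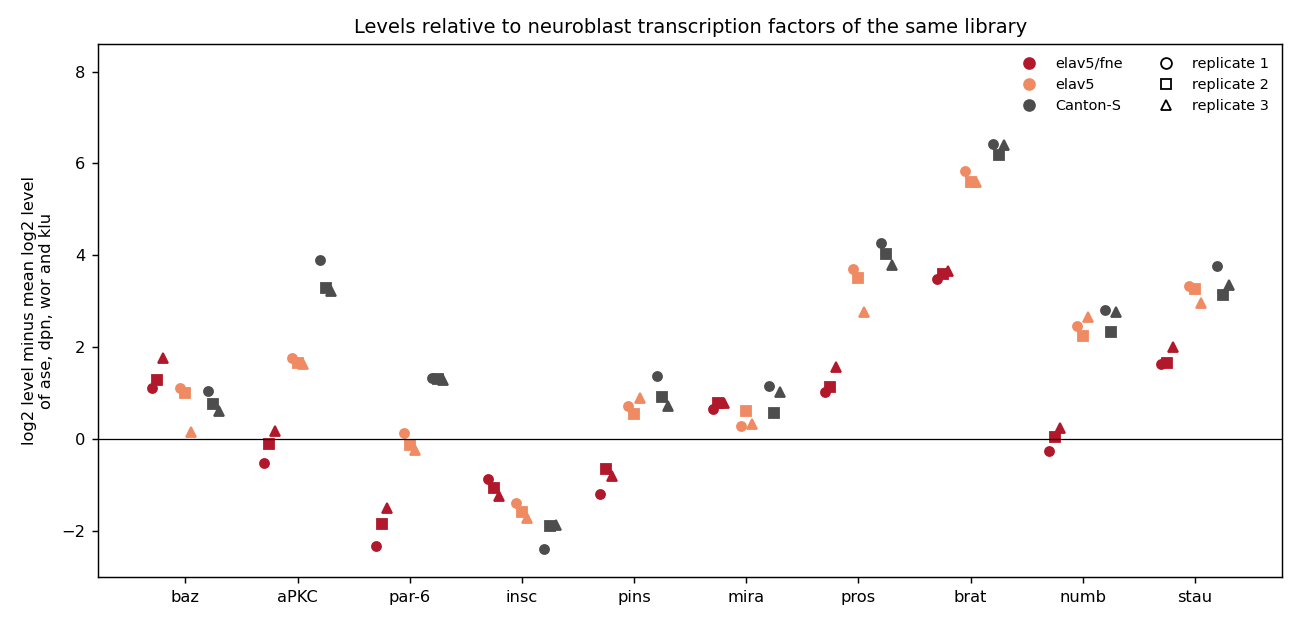
log2 level of each gene minus the mean log2 level of ase, dpn, wor and klu (vertical axis) in each library, by genotype (colour) and replicate (symbol). mira stays between 0.30 and 1.16 in all 9 libraries, insc and baz are highest in elav5/fne, and the other 7 genes are lowest in elav5/fne. For baz, elav5/fne replicate 1 is almost level with elav5 replicate 1.

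Most of the 10 genes have long annotated 3' UTRs, which the selection did not use. The longest annotated 3' UTR of the 10 genes had a median of 1510 nt, beside 320 nt over 8885 tested genes with an annotated 3' UTR (BDGP6.54 annotation, dm6 coordinates), and 8 of 10 exceeded 1000 nt, as did 19.5% of tested genes. It was 15530 nt for pros and 8499 nt for brat, lengths that 0.0113% and 0.191% of tested genes exceeded, and 385 nt for mira. 8 of 10 had more than 1 annotated 3' end, as did 33.3% of tested genes, and insc and pins had 1. Of the genes that rose, mira, with 3' UTRs of 150 to 385 nt, and insc, with 946 nt, were the 2 at or under 1000 nt; baz reached 1301 nt and stau 1885 nt. As the table holds 1 value per gene, a shift between the 3' ends of a gene was not measured. The sources used here do not say whether reads at distal ends fell inside the counted features.

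Other genes of the same machinery were counted from lists with 75 matched genes, of which 72 were tested. In elav5/fne against Canton-S 30 were higher and 14 lower, where 25.8% of all genes were higher and 17.5% lower, with a median of 0.23 beside 0.15 for all genes. In elav5 8 were higher and 8 lower, where 8.17% and 7.04% of all genes were (median 0.002, beside 0.02). For elav5/fne against elav5 31 were higher and 11 lower, where 18.5% and 12.3% of all genes were. Of 10 further cortical polarity genes 5 were higher and 1 lower in elav5/fne. l(2)gl, the cortical antagonist of the Par complex, was at 270.3 ± 8.12 normalised CPM in elav5/fne, 59.3 ± 1.89 in elav5 and 40.6 ± 5.97 in Canton-S, and rose in elav5/fne (log2 2.71, limma adjusted p = 5.25e-07) and in elav5 (0.54, adjusted p = 0.0126). crb, an apical membrane protein gene, was at 82.3 ± 8.29, 53.6 ± 16.0 and 22.2 ± 1.14 (1.84 in elav5/fne, adjusted p = 5.84e-05; 1.20 in elav5, adjusted p = 0.00424). cno, which encodes a scaffold at the cortex, rose in elav5/fne (1.27). dlg1, a scaffold that works with Pins at the cortex, fell in elav5/fne (-0.70, adjusted p = 0.000133) and in elav5 (-0.37, adjusted p = 0.0184).

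Of 11 spindle orientation genes tested 3 were higher and 4 lower in elav5/fne, where 25.8% and 17.5% of all genes were. Galphai, the G protein subunit that Pins binds, was at 235 ± 11.4 normalised CPM in elav5/fne, 77.4 ± 6.50 in elav5 and 63.3 ± 9.35 in Canton-S (log2 1.89 in elav5/fne against Canton-S, limma adjusted p = 4.72e-06). mud, which encodes the dynein-binding partner of Pins, rose by 0.97 (adjusted p = 0.000511). Khc-73, a kinesin gene, fell by 1.02 and ctp, which encodes a dynein light chain, by 1.10. Of 7 genes of basal transport 5 were higher and 1 lower, beside the same shares of all genes. pon, the partner of Numb, was at 8.37 ± 2.66 in elav5/fne, 4.27 ± 0.669 in elav5 and 1.64 ± 0.815 in Canton-S (1.84, adjusted p = 0.00136). The myosin light chain gene sqh rose by 1.08, the kinase gene Rok by 1.29 and Rho1 by 0.61 in elav5/fne, and sqh and Rho1 rose in elav5 as well (0.34 and 0.52).

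Of 15 tested mitotic kinase, cyclin and phosphatase genes 5 were higher and 2 lower in elav5/fne, a share near the 43.2% of all genes that passed. CycA was at 73.7 normalised CPM in elav5/fne, 22.4 in elav5 and 27.5 in Canton-S on average (log2 1.37 in elav5/fne against Canton-S, limma adjusted p = 0.000105). polo, whose kinase acts on Pon and Numb, rose by 1.64 (adjusted p = 0.00012), and Ankle2, which acts on the division machinery through its effect on the kinase Ballchen, by 1.14. sgg, a kinase gene of Wnt signalling, fell by 1.14. aurA and bora were under the filter on low values. Genes of the branch of Notch signalling that Numb inhibits held the largest changes. Of 13 tested 7 were higher and 2 lower in elav5/fne, where 25.8% and 17.5% of all genes were. Their median was 1.19, beside 0.15 for all genes. N, the receptor, was at 322 ± 11.6 in elav5/fne, 48.4 ± 8.34 in elav5 and 35.7 ± 2.94 in Canton-S (3.14, adjusted p = 5.25e-07). The Notch target genes E(spl)mgamma-HLH, E(spl)mbeta-HLH and E(spl)m8-HLH rose by 4.86, 4.15 and 3.92, with mean levels of 181, 84.5 and 78.3 in elav5/fne against 4.98, 3.70 and 4.13 in Canton-S. In elav5 2 genes of this branch were higher, E(spl)mbeta-HLH (1.82) and E(spl)m8-HLH (1.02), where 8.17% of all genes were. In that mutant 3 were lower, AP-2alpha (-1.39), mam (-0.63) and mib1 (-0.53), where 7.04% of all genes were. The 2 lower in elav5/fne were AP-2alpha (-0.43) and mam (-0.83).

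Of 11 target and growth genes linked to Prospero and Brat 6 were higher and 2 lower in elav5/fne, where 25.8% and 17.5% of all genes were. Of the higher genes klu, dpn and CycE were also counted among the neuroblast markers above, and CycE among the mitotic genes too. dap, a cyclin-dependent kinase inhibitor gene, was at 232 ± 48.4 normalised CPM in elav5/fne, 26.01 ± 6.48 in elav5 and 17.4 ± 2.39 in Canton-S (log2 3.65, limma adjusted p = 2.44e-06). stg, the mitotic phosphatase gene that Prospero represses, was at 209.7 ± 50.1, 61.3 ± 3.50 and 30.1 ± 6.47, and rose in elav5/fne (2.75) and in elav5 (1.02, adjusted p = 0.00938). mei-P26, a relative of brat, was at 738 in elav5/fne, 1638 in elav5 and 3088 in Canton-S on average, and fell in both mutants (-2.05 and -0.92). Of 6 tested partners of Staufen in RNA localization none was higher and 2 were lower in elav5/fne, beside the same shares of all genes. The 2 were mago (-1.16) and BicD (-0.54), while egl (0.34, limma adjusted p = 0.232) and tsu (-0.30, adjusted p = 0.252) did not pass.

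**Figure D4:**
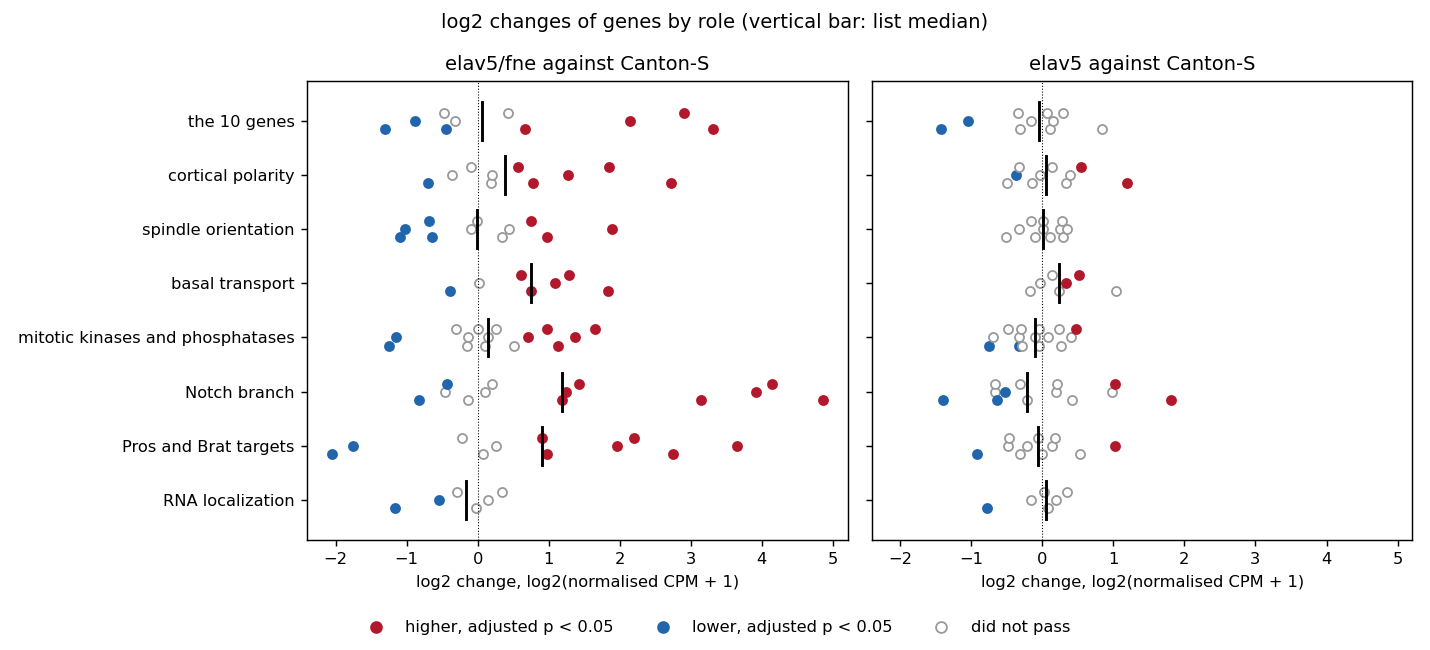
log2 change against Canton-S (horizontal axes) of the 10 genes and of 7 lists of genes of the same machinery, in elav5/fne and elav5; each point is a gene, filled where it passed, and the vertical bar is the list median. In elav5/fne genes of most lists spread to both sides, and the Notch branch holds the points furthest to the right; in elav5 few points are filled.

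2 of the 10 genes, baz and par-6, are X-linked, as are elav and fne. lncRNA:roX1, a noncoding RNA of male dosage compensation, was at 3991 ± 379 normalised CPM in elav5/fne, 4132 ± 489 in elav5 and 1488 ± 30.6 in Canton-S. The sex of the larvae is unknown here, so a different mix of sexes and a difference between genotypes cannot be told apart, and its part in the levels of baz and par-6 was not tested.

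With the muscle level of each library as a covariate mira was at 2.39, insc at 3.54 and baz at 2.52 in elav5/fne against Canton-S, aPKC at -1.35 and par-6 at -1.06, and all 5 passed. Without elav5/fne replicate 3 and elav5 replicate 1 they were at 2.29, 3.57, 2.88, -1.29 and -0.92, and passed. stau passed in both settings (0.64 and 0.71), and brat in neither (-0.36, limma adjusted p = 0.177, and -0.31, adjusted p = 0.0734).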

How the data were processed

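Reads were counted in the dissected CNS of 1st instar larvae of 3 genotypes with 3 libraries each. Libraries were made from 40 ng of total RNA with a Lexogen QuantSeq REV kit for sequencing at 3' ends, per the labels' protocols, and the build was dm6, per the submitters' processing notes. The sources used here name no aligner, counting program, annotation or strand setting. The deposited values are a signal: whole read counts per gene divided by 1 size factor per library, as read from the values, 100% of which come out whole, within 0.1, when divided by the value of 1 read in their library.

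Values were multiplied by 1e6 over the mean column total (normalised CPM). IDs were joined to symbols and to coordinates of BDGP6.54 (17251 of 17421 matched). limma 3.58.1 with a trend was fitted to log2(normalised CPM + 1) over all 9 libraries by genotype, for 9384 genes averaging 1 or more, with Benjamini-Hochberg adjustment; 95% intervals are from that fit and are not adjusted. The replicate number was not used in the fit. Single values had exact permutation tests. Alternatives were pseudocounts, filters, scalings, edgeR 4.0.16 and DESeq2 1.42.0 on recovered reads, a robust fit, a replicate block, 2-genotype fits, a muscle covariate and left-out libraries. The fit was tested on simulated data. R 4.3.3 and Python 3.11.15 were used. The genes and lists were chosen with earlier results of these data known. Genes named beyond the 10 were up to 4 per list, those of lowest p for elav5/fne against Canton-S, 4 neuroblast factors, elav and fne. Genes that overlap the 10, lncRNA:roX1, CycE, AP-2alpha, mam, mib1, nrv2 and repo were added after their values were seen. Of 78 listed genes 3 had no match. No sequence was used here.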

Additional observations from a re-analysis of the deposited data

How the results depend on the processing

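Over 23 alternatives the calls of baz, insc, mira, aPKC, par-6 and stau in elav5/fne against Canton-S and of aPKC and par-6 in elav5 kept their direction and passed in each. Of 690 values of single genes 650 kept direction and call, 18 passed where they had not, 13 no longer passed and 9 changed sign. The last were all of changes that had not passed: in elav5, pins (-0.0842 with libraries scaled to their total, -0.01 without Canton-S replicate 3, -0.0293 without elav5 replicate 3; left-out libraries gave up to 0.122), numb (-0.0043) and stau (-0.04) with that scaling; and in elav5/fne against elav5, pros (0.0204 without elav5 replicate 1, down to -0.3898 without elav5 replicate 3) and brat (0.0037 without elav5/fne replicate 3, down to -0.2162 without replicate 1), with 0.0253 and 0.0446 without both the libraries richest in muscle transcripts.

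Left-out libraries gave 6 to 8 called genes of the 10 in elav5/fne against Canton-S, 2 to 3 in elav5 and 4 to 5 between the mutants; over all genes 3233 to 4292, 707 to 1539 and 2155 to 3011; and over the related lists 42 to 45, 10 to 18 and 37 to 42. The lowest in elav5 were 707 and 732 genes when Canton-S replicate 1 or 2 was left out, and 10 listed genes (16 with all libraries) when Canton-S replicate 2 or 3 was. The main count over all genes in elav5 was 1428, with 2145 in DESeq2 and 909 with the replicate block, and the cause was not tested. With the block 6, 2 and 4 of the 10 passed, and the count over all genes is given here for elav5 only. Deviations of same-numbered libraries from their genotype means had correlations of -0.70 to 0.20. Those of elav5/fne replicate 3 and elav5 replicate 1, the libraries richest in muscle transcripts, had 0.67. With 3 libraries per genotype such correlations cannot show whether the numbers pair the libraries. The median of all genes in elav5/fne against Canton-S was 0.02 under TMM scaling in place of 0.15; it called 9 of the 10, 4 higher and 5 lower, and 2048 genes higher and 2161 lower in place of 2418 and 1638. Between the mutants it called 1304 higher and 1417 lower in place of 1734 and 1154, and scaling to the total called 557 higher and 1184 lower in elav5 in place of 767 and 661. With dpn alone as comparison gene 2 relative levels in elav5 did not overlap, in place of 5, and the share of all genes was not computed. Depth limited insc in Canton-S, at 22 reads in its lowest library.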
